A study of Homo sapiens with 12 samples.

Results

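The 33 genes described here are targets of the transcription factor p53, chosen by name from a list of symbols and found among the 60671 genes of the count table. Of these, 32 passed the filter on low counts, as did 13236 genes in all, and TNFRSF10A did not. By role, 5 of the 33 act back on p53, 11 encode death receptors and proteins of apoptosis, 6 act in growth arrest and signalling, 5 in DNA repair and nucleotide supply and 6 in metabolism and other processes.

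The p53 protein binds DNA as a tetramer at a pair of half-sites and switches on the genes next to them when DNA is damaged or growth signals are out of balance. MDM2, itself a target, marks p53 for destruction and so closes a feedback loop. In fibroblasts, p53 is best known for the arrest of the cell cycle through CDKN1A (p21), and it also drives genes for repair, for metabolism and for cell death.

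The cells were BJ-5ta, human foreskin fibroblasts made immortal with telomerase (hTERT). Wild-type cells and ΔLEO1 cells were each grown in 10% serum (the groups WT_10 and Leo1_10) or held for 10 days in 0.1% serum (WT_01 and Leo1_01), and LEO1, a subunit of the PAF1 complex of transcription elongation, had been disrupted in the ΔLEO1 cells with CRISPR at exons 1 and 2. The ΔLEO1 cells were 1 single-cell clone, so the loss of LEO1 and any other property of that clone cannot be told apart. Poly(A) RNA with added ERCC spike-in transcripts was sequenced as 3 libraries a group, numbered 1 to 12 over the series, and no label says that they came from separate cultures, so p-values measure the spread between these libraries.

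To show what a p53 site looks like in these genes, the promoter windows listed by RefSeq (GRCh38.p14), 250 bases before to 50 after each transcription start, were searched on the strand of the gene for a pair of adjacent half-sites of the p53 consensus, with the central C and G of each half-site intact and at most 3 mismatches in 20 bases. The consensus reads the same on both strands, so a match on one is a match on the other. Such a match lay in 1.12% of all 35116 windows and in 9 of the 37 windows of the 25 listed p53 targets, which belonged to 8 genes. The 8 are printed here because they are the members whose own promoter window carries letters close to the p53 consensus. Capitals mark the match and small letters up to 5 bases on either side, all 5′ to 3′ on the strand of the gene.
DDB2: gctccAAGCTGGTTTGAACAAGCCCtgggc
AEN: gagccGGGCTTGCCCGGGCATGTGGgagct
FAS: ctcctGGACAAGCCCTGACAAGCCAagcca
MDM2: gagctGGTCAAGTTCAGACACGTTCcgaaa
FDXR: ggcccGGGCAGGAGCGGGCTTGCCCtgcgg
GDF15: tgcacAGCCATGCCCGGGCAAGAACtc
RPS27L: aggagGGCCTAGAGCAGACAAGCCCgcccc
SESN1: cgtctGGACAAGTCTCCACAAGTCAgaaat
The DDB2 match had 1 mismatch, and only 19 of the 35116 windows had 1 or fewer. Those of AEN, FAS and MDM2 had 2 mismatches and those of FDXR, GDF15, RPS27L and SESN1 had 3. The printed stretches lie at chr11:47214964-47214993 (+), chr15:88621301-88621330 (+), chr10:88991304-88991333 (+), chr12:68808918-68808947 (+), chr17:74872991-74873020 (-), chr19:18386181-18386207 (+), chr15:63157522-63157551 (-) and chr6:109009013-109009042 (-). A match is a description of the letters and was not tested as a binding site.

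Both an ERCC scale and a gene scale are used throughout. On the ERCC scale, gene counts were divided by the spike-in counts of the library, so that a loss of RNA shared by all genes is kept. On the gene scale, counts were given as CPM, scaled to a common library size with TMM factors computed on the genes, so that each gene is set against the other genes. The median of all tested genes on the ERCC scale was -0.97 (log2) for low against normal serum in wild type, -1.05 in ΔLEO1, and 0.35 and 0.27 for ΔLEO1 against wild type in 10% and 0.1% serum. Each of these medians was within 0.03 of 0 on the gene scale. In bulk RNA, fewer cells and less RNA per cell cannot be told apart. Values per library are given on the gene scale as CPM, and a gene was called where the adjusted p of the edgeR likelihood ratio test was under 0.05.

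Gene counts ran from 26240632 to 45315560 per library and ERCC counts from 0.625% to 3.24% of all counts. Libraries 3, 6, 9 and 12, the highest-numbered of each group, stood apart. Their counts differed from the others of their group by a chi-square per gene of 59.6 to 129, against 2.87 to 11.1 between the other two. On the gene scale, 0 of 32 members in library 3 and 1 in library 9 lay more than 1 (log2) from the other 2 of their group. In library 6 it was 0 and in library 12 it was 3. Of all genes, 3.45% in library 3, 2.67% in library 9, 1.94% in library 6 and 2.92% in library 12 did. In the same order, the median absolute difference was 0.31, 0.21, 0.18 and 0.37 for the members. For all genes it was 0.17, 0.21, 0.15 and 0.25. Counts of members called are therefore given with and without these 4 libraries. LEO1 (chr15:51938025-51971806), the targeted gene, had 23.9, 24.6 and 24.2 CPM in WT_10 and 28.9, 29.3 and 19.9 in WT_01, against 1.398, 0.805 and 1.28 in Leo1_10 and 0.676, 1.42 and 1.31 in Leo1_01. The deletion was made at exons 1 and 2. Counts were not split by exon, so the source of the reads left in ΔLEO1 was not tested. All 8 fibroblast markers passed the filter, COL1A1 at 13330.2 to 34155 CPM, and none of the 7 epithelial and endothelial markers did, although CDH1 had 8, 10 and 13 counts in WT_10 and 40, 38 and 63 in Leo1_10, and 2, 0 and 2 in WT_01 and 9, 18 and 19 in Leo1_01. Of the 3 leukocyte markers, PTPRC was at 0.211 to 0.614 CPM in wild type and 1.42 to 7.26 in ΔLEO1, CD68 at 0.562 to 1.39 in wild type and 0.443 to 1.002 in ΔLEO1 (called lower in 0.1% serum on the gene scale, -0.92, adjusted p = 0.0289) and CD3E at 1 count or fewer. PTPRC was higher in ΔLEO1 in both sera and the CDH1 counts did not overlap between the genotypes within a serum, as the 17 p53 targets below were lower, and the part of these markers in those results was not tested.

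Among 19 regulators of p53, 17 passed the filter, and between ΔLEO1 and wild type 0 were called on the ERCC scale in either serum, with 0 at an unadjusted p under 0.05. Relative to the other genes, 3 were lower and 3 higher in 10% serum, and 1 lower and 1 higher in 0.1% serum. COP1, a ubiquitin ligase that marks p53 for destruction, had 29.8, 31.8 and 31.5 CPM in WT_10 and 24.3, 24.8 and 23.7 in Leo1_10, and its log2 fold change was -0.35 (adjusted p = 0.00490) and, in 0.1% serum, -0.34 (adjusted p = 0.0101). SIRT1, a deacetylase that acts on p53, had 24.9, 27.2 and 28.2 CPM in WT_10 and 36.6, 35.1 and 38.3 in Leo1_10, and gave 0.45 (adjusted p = 0.000497) and 0.38 (adjusted p = 0.00519). HIPK2, a kinase that activates p53, had 59.5, 60.03 and 39.98 CPM in WT_10 and 30.6, 32.96 and 22.7 in Leo1_10 and was lower in 10% serum (-0.89, adjusted p = 0.000401), with -0.34 (adjusted p = 0.240) in 0.1% serum. ATM, the kinase that signals DNA breaks to p53, had 89.6, 84.7 and 81.4 and 56.7, 57.1 and 61.2 CPM and gave -0.55 (adjusted p = 0.00178) and -0.34 (adjusted p = 0.0766). MDM4 (0.49) and RCHY1 (0.41) were higher in 10% serum. The share of all tested genes called on this scale was 21.8% lower and 17.7% higher in 10% serum, and 17.6% and 15.4% in 0.1% serum. Whether the counting used strand is not given in the sources used here, which bears on members that genes on the other strand overlap.

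**Figure D1:**
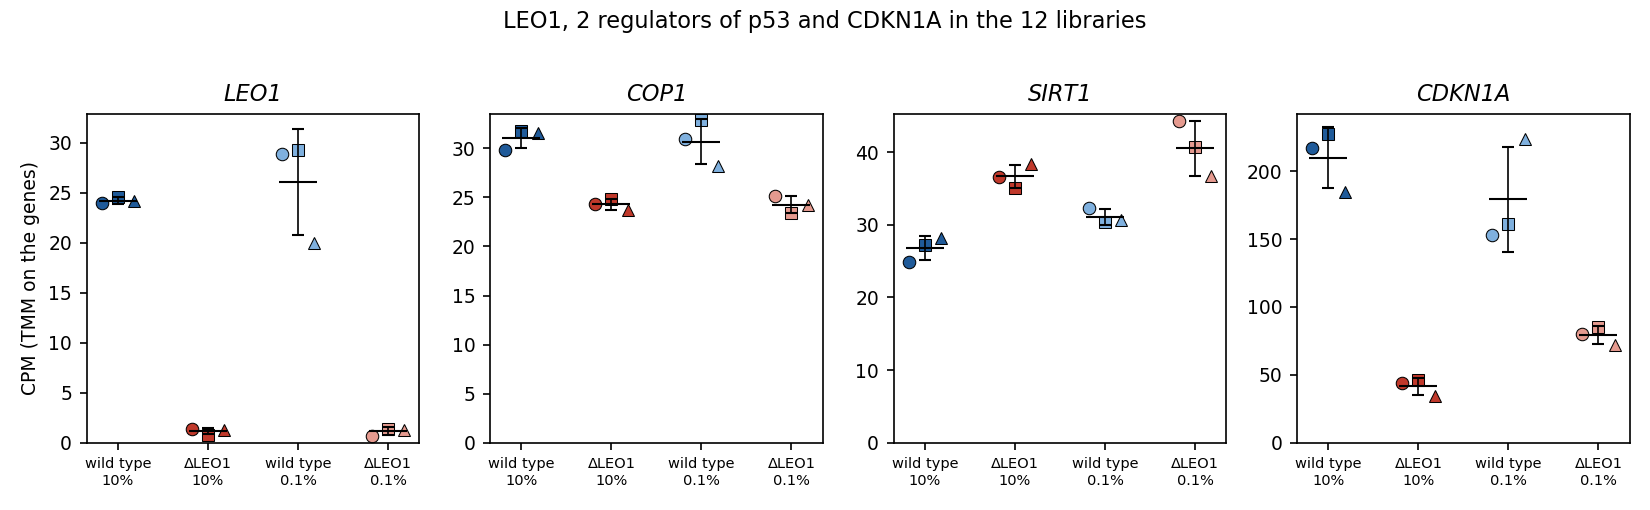
Level of LEO1, COP1, SIRT1 and CDKN1A in each of the 12 libraries, as CPM with TMM factors on the genes (linear axis from 0), by genotype and serum. Points are libraries (circle, square and triangle for the lowest, middle and highest number in the group), and the line and bar are the mean and SD of 3. LEO1 was at 0.676 to 1.42 CPM in Leo1_01, and COP1 was a little lower and SIRT1 a little higher in ΔLEO1.

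Per length, as mean CPM per kb of exon over the 4 groups, the p53 targets ran from 28.7 for CCNG1, the cyclin G1 gene, to 0.0720 for TNFRSF10A. XPC, GADD45A and PHLDA3 followed CCNG1 with 24.6, 22.2 and 19.2. TIGAR, SESN1 and SPATA18 were the lowest that passed the filter, with 1.48, 1.42 and 1.07. The targets thus spanned a wide range of levels in these cells.

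In ΔLEO1 against wild type, the question was what the loss of LEO1 changes in growing and in quiescent cells. A group of p53 targets was much lower in the clone in both sera. On the ERCC scale 8 of 32 were called lower in 10% serum (4.64% of all tested genes were) and 0 higher (4.20%; 3 at an unadjusted p under 0.05, and 0 by the quasi-likelihood test and by DESeq2), with a member median of -0.12. In 0.1% serum 6 were called lower (3.59%) and 0 higher (3.85%; 1 at an unadjusted p under 0.05, and 0 by both other tests), with a member median of -0.25. DDB2, EDA2R, FAS, GDF15, SPATA18 and ZMAT3 were lower in both, and BTG2 and PHLDA3 in 10% serum. Set against the other genes, 18 were lower in 10% serum (21.8%) and 3 higher (17.7%), with a median of -0.48. In 0.1% serum 17 were lower (17.6%) and 3 higher (15.4%), with a median of -0.57. The 17 were lower in both sera, where 13.8% of all tested genes were, and they lie on 13 chromosomes. PLK2, SERTAD1 and TIGAR were the 3 called higher in each serum. The 2 comparisons share no library, and across the 32 members their log2 fold changes had r = 0.98 on the gene scale, against 0.89 across all tested genes. This is a correlation across genes of the same clone, which are not independent replicates. SPATA18 and EDA2R, far below the other members, weigh heavily on it. The sign was the same in both sera for 28 of the 32 members (87.5%), beside 79.7% of all tested genes.

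**Figure D2:**
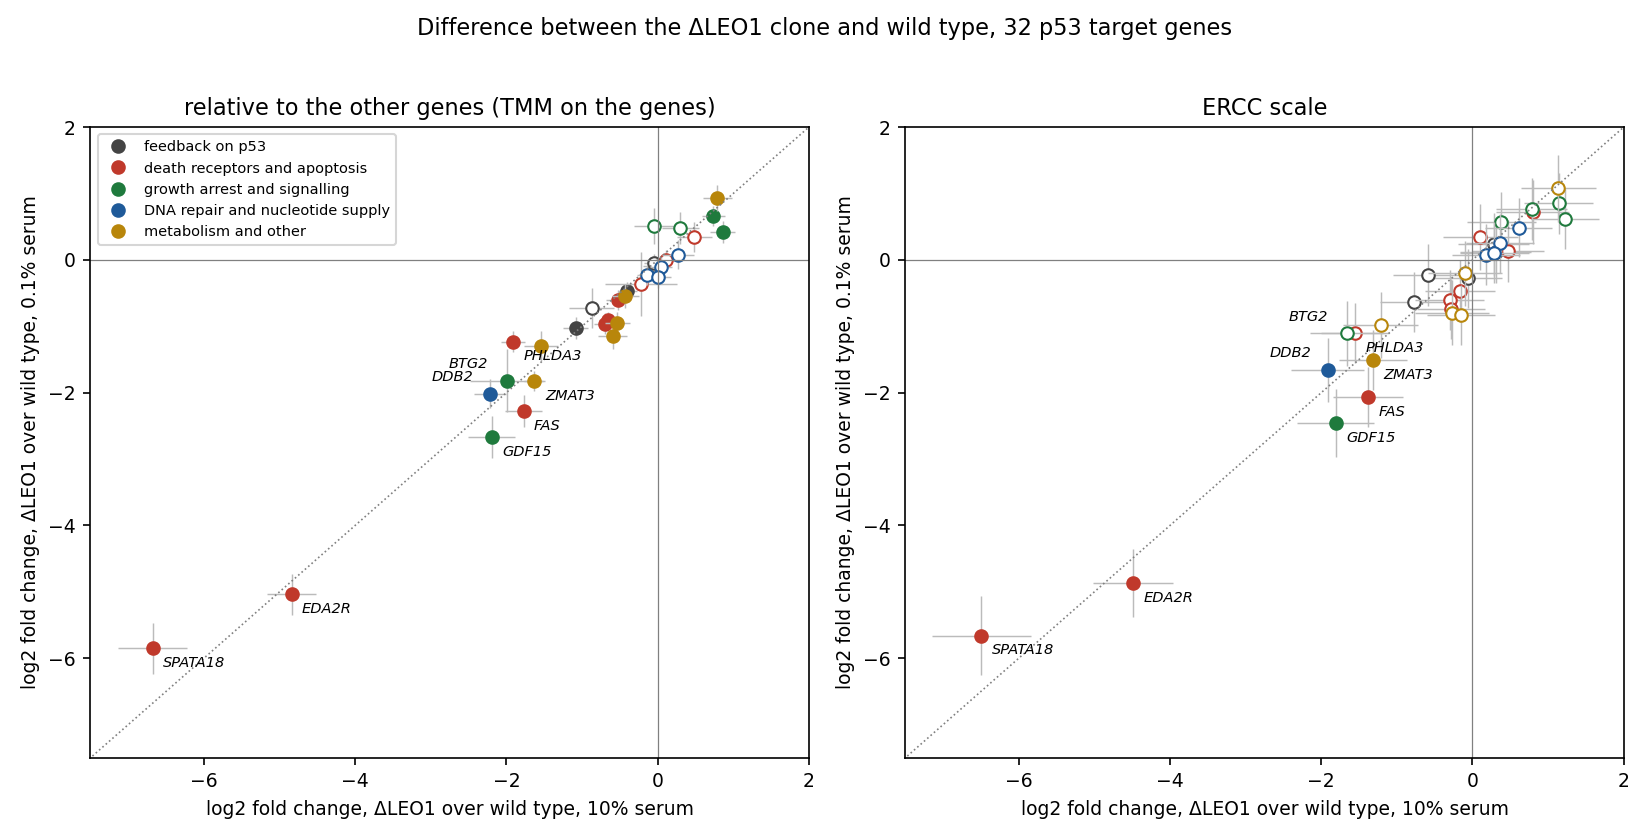
Log2 fold change of ΔLEO1 over wild type in 10% serum (x axis) and 0.1% serum (y axis) for 32 p53 targets, relative to the other genes (left) and on the ERCC scale (right). Bars are SE, colours are roles, filled points were called in both sera and the dotted line marks equal values. SPATA18 and EDA2R lie far down the line, followed by GDF15, DDB2, FAS, BTG2, ZMAT3 and PHLDA3.

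**Figure D3:**
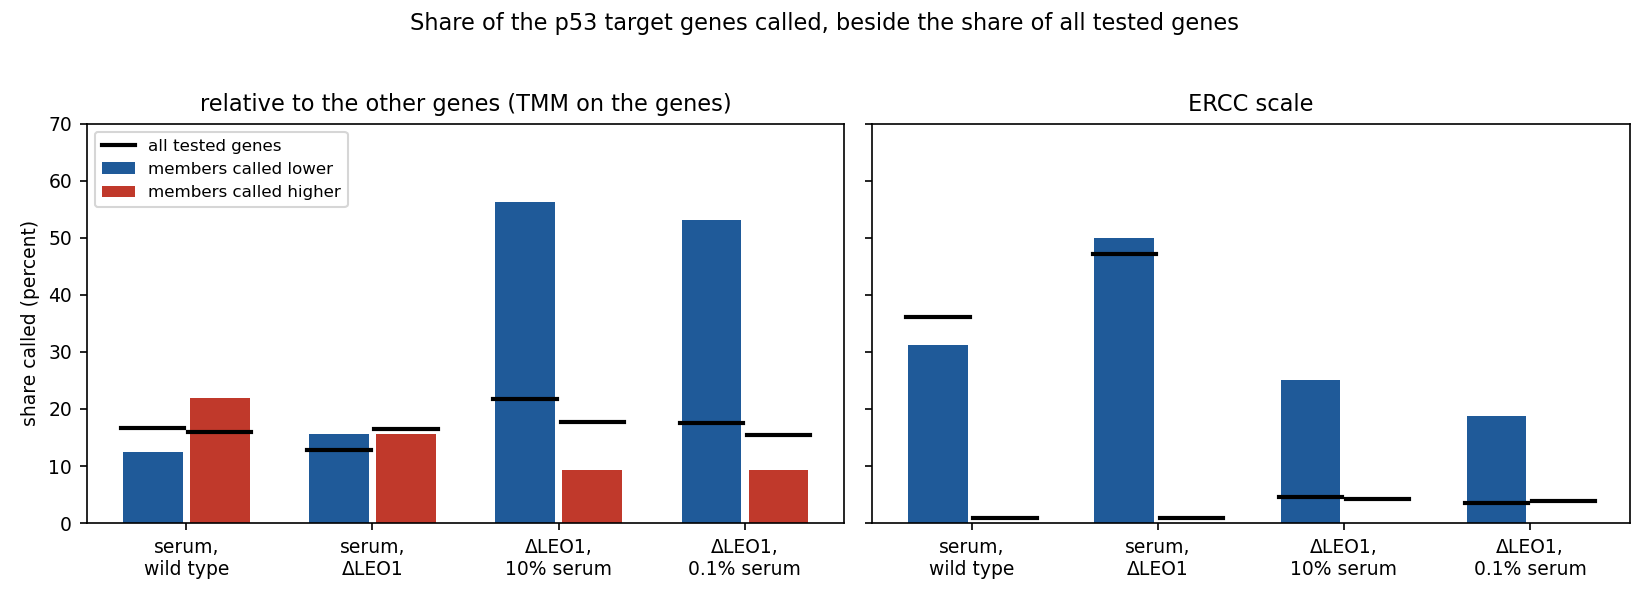
Share of the 32 p53 targets called lower (blue) or higher (red) in each comparison, in percent, with black bars for the share of all tested genes, relative to the other genes (left) and on the ERCC scale (right). The members stand above the background for lower levels in ΔLEO1 and stay near it for serum.

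Leaving out the 4 highest-numbered libraries changed the counts, with 2 libraries left in each group. Then 9 members were lower on the ERCC scale in 10% serum (6.82% of 12911 tested genes) and 4 higher (6.72%), and 18 were lower in 0.1% serum (15.9%) and 0 higher (2.54%). The gene-scale counts were 20 lower (32.6%) and 6 higher (31.0%) in 10% serum, and 22 lower (29.8%) and 6 higher (31.1%) in 0.1% serum. Single libraries mattered for the calls on the ERCC scale. In 10% serum, 2 members were called lower without library 6, and 3 without library 1, 2 or 5. In 0.1% serum, 15 were called without library 12 and 4 without library 8, 10 or 11. The shares of all tested genes with 1 library left out are not given here, so these counts do not set the members apart from other genes. With a term for the highest-numbered library of each group, 6 members were lower in each serum on the ERCC scale (4.38% and 3.31% of all tested genes were). In 10% serum FAS (adjusted p = 0.0522) and ZMAT3 (adjusted p = 0.0673) lost their calls. EDA2R and SPATA18 were called in both sera whichever library was left out. In 10% serum the call was lost without 1 of several libraries for FAS (1 to 7 and 10), ZMAT3 (1, 2, 4 to 8 and 10), BTG2 and PHLDA3 (1, 2, 5 and 6), GDF15 (2, 5 and 6) and DDB2 (1 and 6), and in 0.1% serum for DDB2 (8, 10 and 11) and ZMAT3 (7, 8, 10 and 11). Gene-scale counts stayed at 15 to 18 and 16 to 20, and the calls lost were those of ANKRA2 (8 libraries in 10% serum and 4 in 0.1% serum), TP53INP1 (1, 2 and 5), CCNG1 (2), FDXR (4) and PLK2.

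Among the death receptor and apoptosis genes, 10 of 11 were tested. On the gene scale 7 were called lower in each serum (21.8% and 17.6% of all tested genes were) and 0 higher (17.7% and 15.4%). EDA2R, FAS and SPATA18 were lower in both sera on the ERCC scale, and PHLDA3 in 10% serum. EDA2R (chrX:66595637-66639298), a receptor of the tumour necrosis factor family that binds ectodysplasin A2, had 12.1, 13.7 and 9.43 CPM in WT_10 and 0.528, 0.559 and 0.140 in Leo1_10. In low serum it had 26.6, 23.7 and 23.9 in WT_01 and 1.09, 0.606 and 0.559 in Leo1_01. In CPM the wild-type values were higher in low serum, and the groups of the 2 genotypes were far apart in both sera. The log2 fold change on the ERCC scale was -4.49 ± 0.53 (SE) in 10% serum (adjusted p = 1.94e-12) and -4.86 ± 0.52 (SE) in 0.1% serum (adjusted p = 2.82e-14).

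SPATA18 (chr4:52051331-52097292), which acts in the quality control of mitochondria, was nearly silent in the clone. Its raw counts were 376, 435 and 315 in WT_10 and 1, 3 and 8 in Leo1_10, and 391, 272 and 369 in WT_01 and 8, 4 and 7 in Leo1_01. Summed over each group, the wild-type level on the ERCC scale was 80.7 times that of ΔLEO1 in 10% serum (95% counting interval 46.0 to 157) and 56.5 times in 0.1% serum (36.0 to 94.3). The fitted log2 fold changes were -6.49 ± 0.66 (SE) (adjusted p = 6.88e-19) and -5.66 ± 0.59 (SE) (adjusted p = 7.17e-16). TNFRSF10A, a receptor for the ligand TRAIL, had 12, 19 and 23 counts in WT_10, 17, 8 and 11 in WT_01 and 0 in all 6 ΔLEO1 libraries. With 3 counts per library as the floor, it was at least 4.92-fold lower in 10% serum and at least 3.62-fold lower in 0.1% serum on the ERCC scale. It did not pass the filter, and in the alternative fit with no filter on low counts, over 32285 genes, it was called lower in 10% serum (adjusted p = 1.49e-06, edgeR likelihood ratio test) and in 0.1% serum (adjusted p = 1.32e-05).

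FAS (chr10:88990582-89015785), the receptor for FAS ligand, had 35.9, 34.8 and 60.3 CPM in WT_10 and 10.1, 12.6 and 15.7 in Leo1_10. In low serum the values were 85.04, 83.01 and 56.4 and 13.96, 16.7 and 15.7. The ΔLEO1 libraries were all lower, although library 3 was high and library 9 low within wild type. The ERCC-scale log2 fold change was -1.38 ± 0.46 (SE) (adjusted p = 0.0371) in 10% serum, with an adjusted p of 0.0593 by the quasi-likelihood test, and -2.07 ± 0.46 (SE) (adjusted p = 0.000402) in 0.1% serum. ACTA2 lies on the other strand over 8.93% of the exon bases of FAS, and it was higher in the clone, by 1.58 and 2.26 (log2, gene scale). PHLDA3, an inhibitor of AKT signalling, had 76.9, 80.97 and 80.7 CPM in WT_10, 22.3, 19.02 and 22.1 in Leo1_10, 97.9, 110.4 and 87.6 in WT_01 and 48.97, 45.2 and 31.8 in Leo1_01. Its values did not overlap between the genotypes, and the fold change was -1.55 ± 0.45 (SE) (adjusted p = 0.0121) in 10% serum and -1.10 ± 0.45 (SE) (adjusted p = 0.159) in 0.1% serum on the ERCC scale. Another gene on the same strand overlaps 19.1% of its exon bases, so that its counts are uncertain.

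BAX, the pore-forming protein of the mitochondrial outer membrane, was called lower on the gene scale alone, with log2 fold changes of -0.66 (adjusted p = 6.11e-08) in 10% serum and -0.90 (adjusted p = 1.58e-13) in 0.1% serum. The same held for the TRAIL receptor TNFRSF10B (-0.69 and -0.96) and the nuclease AEN (-0.53 and -0.61). These 3 genes gave -0.17 to -0.30 in 10% serum and -0.47 to -0.75 in 0.1% serum on the ERCC scale, with no call. Without libraries 3, 6, 9 and 12, all 3 were called lower in 0.1% serum on that scale. BBC3 (PUMA), TRIAP1 and TP53I3 were not called between the genotypes on either scale with all 12 libraries. Without libraries 3, 6, 9 and 12, TP53I3 was called higher in both sera on the gene scale. BBC3 was then called lower in 0.1% serum on both scales. BBC3 had 3.12 and 3.24 CPM in libraries 10 and 11 and 11.1 in library 12, and likewise 4.67 and 5.25 in libraries 7 and 8 and 12.5 in library 9.

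**Figure D4:**
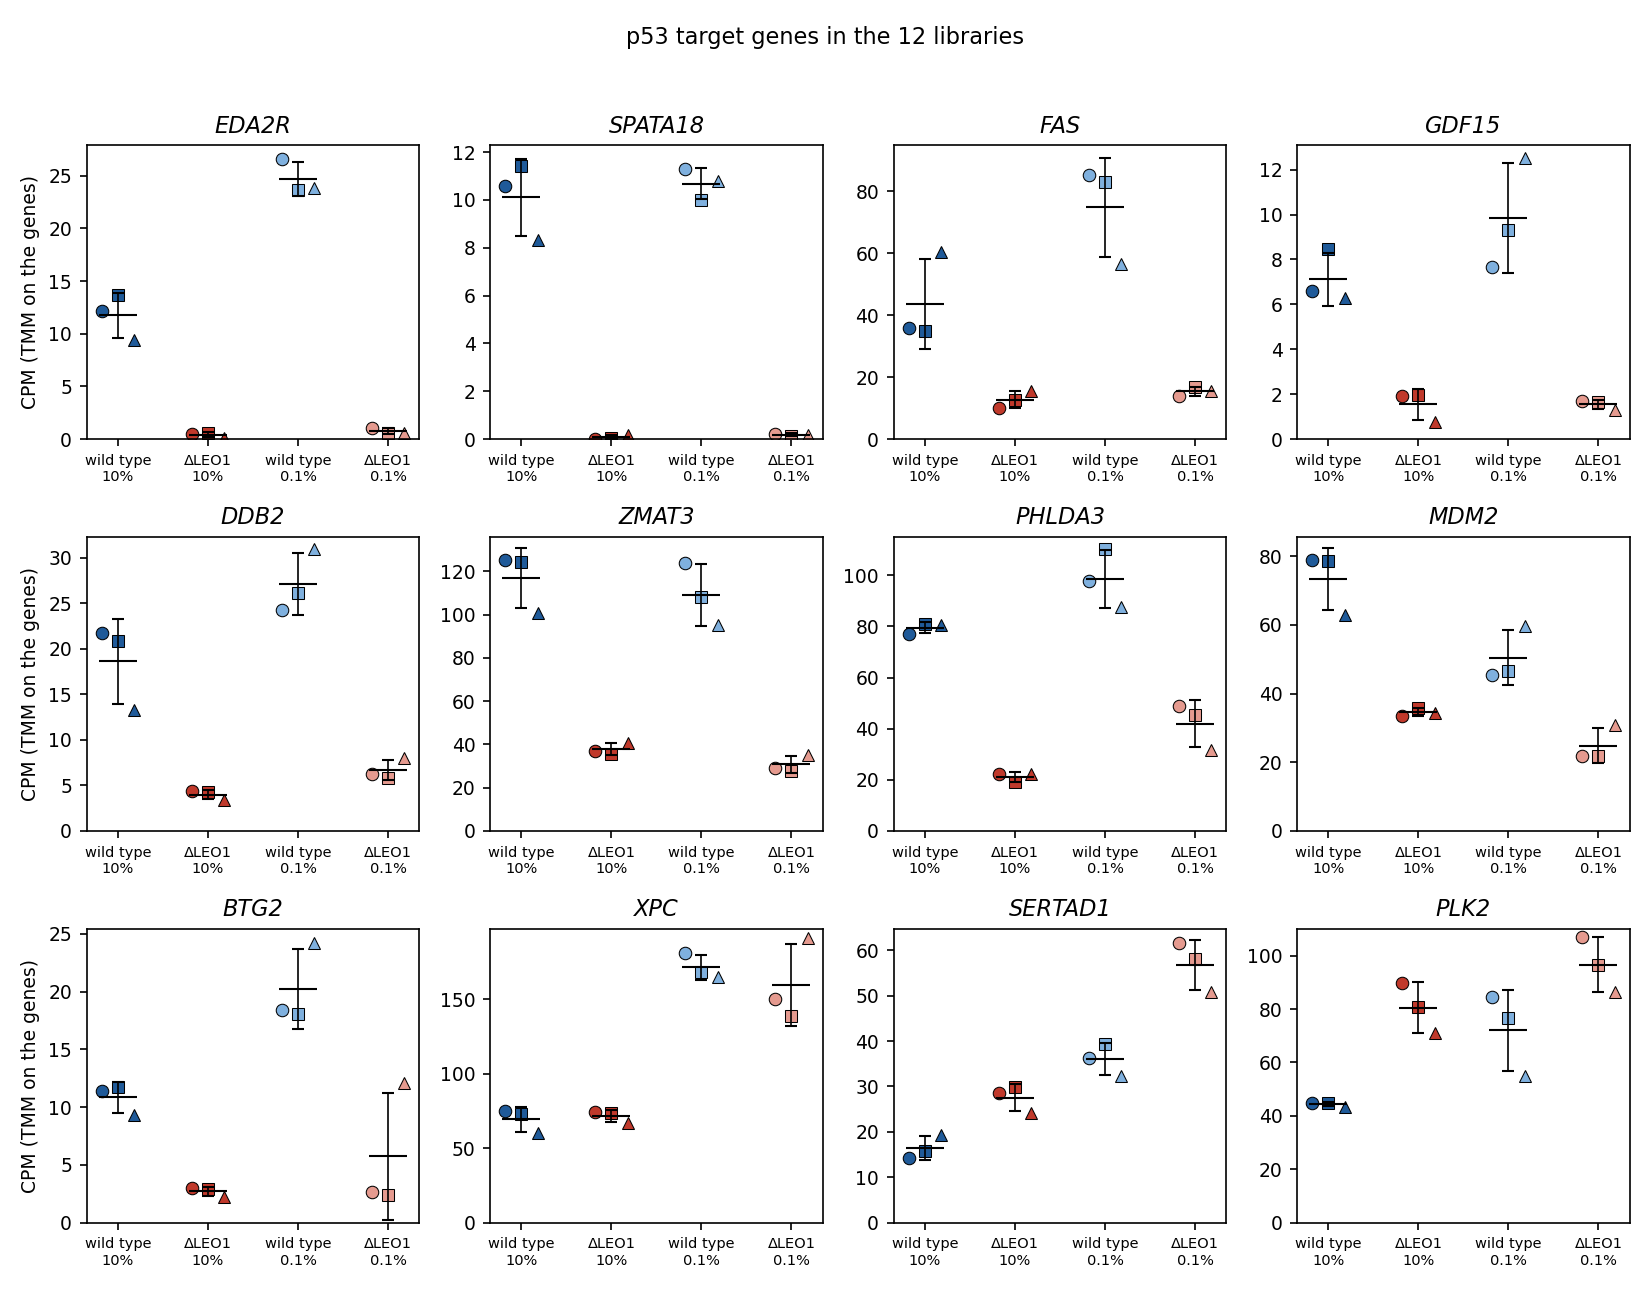
Level of 12 p53 targets in each of the 12 libraries, as CPM with TMM factors on the genes (linear axes from 0), by genotype and serum. Points are libraries (circle, square and triangle for the lowest, middle and highest number in the group), and the line and bar are the mean and SD of 3. EDA2R and SPATA18 were near 0 in ΔLEO1, XPC differed by serum and overlapped between the genotypes, and BTG2 was high in library 12 (12.1 CPM).

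In growth arrest and signalling, 2 of 6 members were called lower in each serum on the gene scale (21.8% and 17.6% of all tested genes were). Another 2 were called higher in each serum (17.7% and 15.4%). GDF15 (chr19:18374731-18389176), a secreted cytokine, had 6.58, 8.48 and 6.29 CPM in WT_10 and 1.93, 1.97 and 0.770 in Leo1_10. In low serum it had 7.68, 9.32 and 12.5 in WT_01 and 1.705, 1.64 and 1.31 in Leo1_01. All ΔLEO1 values were under 2 CPM and all wild-type values over 6. The ERCC-scale fold change was -1.81 ± 0.51 (SE) (adjusted p = 0.00858) and -2.46 ± 0.51 (SE) (adjusted p = 0.000139).

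BTG2, an antiproliferative gene that is also induced early by stress, had 11.4, 11.8 and 9.33 CPM in WT_10, 3.01, 2.91 and 2.24 in Leo1_10, 18.4, 18.1 and 24.2 in WT_01 and 2.704, 2.39 and 12.1 in Leo1_01. The last of these libraries, number 12, lay well above the others of its group. BTG2 was called lower in 10% serum (-1.66 ± 0.49 (SE), adjusted p = 0.0152, ERCC scale; 0.295 by DESeq2) but not in 0.1% serum (-1.10, adjusted p = 0.228), where the value without library 12 was -3.22. SERTAD1, a cell cycle regulator, and PLK2, a polo-like kinase, went the other way. SERTAD1 had 14.2, 15.9 and 19.4 CPM in WT_10 and 28.6, 29.8 and 24.1 in Leo1_10, a gene-scale difference of 0.74 (adjusted p = 1.31e-05), and 0.66 (adjusted p = 0.000112) in 0.1% serum. PLK2 differed by 0.86 (adjusted p = 1.34e-06) and 0.42 (adjusted p = 0.0307), and the latter call was lost without library 8, 9, 10 or 11. Both were positive without a call on the ERCC scale, but without libraries 3, 6, 9 and 12 both were called higher there in 10% serum. PLK3 and GADD45A were not called in either serum with all 12 libraries. Without libraries 3, 6, 9 and 12, both were called higher in both sera on the gene scale. PLK3 was then also called higher in 10% serum on the ERCC scale.

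In DNA repair and nucleotide supply, DDB2 was the member called lower, on both scales and in both sera. DDB2 (chr11:47214465-47239240), which finds damage by ultraviolet light for nucleotide excision repair and carries the closest promoter match above, had 21.7, 20.9 and 13.3 CPM in WT_10 and 4.35, 4.27 and 3.38 in Leo1_10. In low serum it had 24.3, 26.1 and 30.9 in WT_01 and 6.29, 5.85 and 7.96 in Leo1_01. Neither pair of groups overlapped, and the ERCC-scale fold change was -1.92 ± 0.48 (SE) (adjusted p = 0.00225) and -1.66 ± 0.48 (SE) (adjusted p = 0.0132). XPC, which acts beside DDB2 in the same repair pathway, had 75.4, 73.2 and 60.003 CPM in WT_10 and 74.4, 73.6 and 66.8 in Leo1_10, which overlapped. Genes on the other strand cover 30.4% of the exon bases of XPC. XPC, the polymerase POLH, the helicase ASCC3 and the ribonucleotide reductase subunit RRM2B were not called between the genotypes on either scale with all 12 libraries. Without libraries 3, 6, 9 and 12, POLH and RRM2B were called lower in both sera on the gene scale, and XPC in 0.1% serum.

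Among the genes that act back on p53, 3 of 5 were lower in 10% serum (21.8% of all tested genes were) and 2 in 0.1% serum (17.6%) on the gene scale. On the ERCC scale 0 were lower (4.64% and 3.59%), with 0 at an unadjusted p under 0.05. MDM2 had 78.8, 78.6 and 63.02 CPM in WT_10, 33.6, 35.96 and 34.5 in Leo1_10, 45.3, 46.5 and 59.7 in WT_01 and 21.96, 21.8 and 30.8 in Leo1_01. Here the genotypes did not overlap within a serum, and the difference was -1.08 (adjusted p = 2.2e-09) and -1.02 (adjusted p = 3.12e-08). Its ERCC-scale values were -0.77 and -0.63, with overlapping groups and no call. Without libraries 3, 6, 9 and 12, MDM2 and TP53INP1 were called lower in 0.1% serum on the ERCC scale. CPM, the carboxypeptidase M gene on the other strand, overlaps MDM2 and was lower by more (-3.36 and -1.91, gene scale). CCNG1 was called lower in both sera on the gene scale (-0.40 and -0.47), and TP53INP1 gave -0.87 (adjusted p = 0.0123) in 10% serum, with an adjusted p of 0.0501 in 0.1% serum. The phosphatase PPM1D and the ubiquitin ligase subunit FBXO22 were not called.

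In metabolism and other processes, 5 of 6 members were lower in each serum on the gene scale (21.8% and 17.6% of all tested genes were). The remaining 1 was higher in each serum (17.7% and 15.4%). ZMAT3 (chr3:179017223-179072279), an RNA-binding zinc finger protein, had 125, 124 and 101 CPM in WT_10 and 36.96, 35.6 and 40.8 in Leo1_10. In low serum it had 124, 108 and 95.01 in WT_01 and 29.3, 27.9 and 35.02 in Leo1_01. The genotypes were well apart, with an ERCC-scale fold change of -1.32 ± 0.45 (SE) (adjusted p = 0.0457; 0.0722 by the quasi-likelihood test and 0.0692 by DESeq2) and -1.51 ± 0.45 (SE) (adjusted p = 0.0166). SESN1, a stress-induced regulator of growth signalling, fell by 1.54 and 1.30 on the gene scale. FDXR, which passes electrons to mitochondrial enzymes, gave -0.60 and -1.15, RPS27L -0.53 and -0.95, and ANKRA2 -0.43 and -0.54, all called on that scale. TIGAR, a brake on glycolysis, was higher by 0.79 and 0.94, but another gene on the same strand covers 42.6% of its exon bases, so that its counts are uncertain.

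Of the 8 members with a promoter match, 8 were called lower in both sera on the gene scale, as were 7 of the 17 with a listed promoter and no match and 2 of the 8 that are not in the promoter table. Of all tested genes 13.8% were lower in both sera, with 29 of the 150 whose window holds a match (19.3%, these 8 included) and 13.6% of the 10060 listed without one. The genes beside the 17 members were looked at as well. Of the 34 nearest tested genes on either side, 6 were called lower in both sera (beside 13.8% of all tested genes). Another 2 were higher in both (beside 1348 of the 13236 tested genes). The medians of the 34 were -0.13 in 10% serum and 0.01 in 0.1% serum. Single neighbours were as low as the members, such as HEPH (-3.92 and -3.35) beside EDA2R, CH25H beside FAS (-3.75 and -3.51) and FMOD beside BTG2 (-3.82 and -6.82). These neighbours were named after their values were seen.

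From a second list of 20 known p53 targets, 15 were tested, and on the gene scale 6 were lower (21.8% of all tested genes were) and 1 higher (17.7%) in 10% serum and 6 lower (17.6%) and 3 higher (15.4%) in 0.1% serum. CDKN1A, the cyclin-dependent kinase inhibitor p21, had 217, 228 and 184 CPM in WT_10 and 43.9, 46.5 and 34.5 in Leo1_10. In low serum it had 153, 161 and 224 in WT_01 and 80.1, 85.4 and 71.97 in Leo1_01. The groups did not overlap in either serum, and the gap was smaller in 0.1% serum (interaction 1.15 on the gene scale, adjusted p = 0.000261). The ERCC-scale fold change was -1.99 ± 0.45 (SE) (adjusted p = 0.000404) and -0.93 ± 0.45 (SE) (adjusted p = 0.305). TNFRSF1B, a receptor for tumour necrosis factor, had 26, 30 and 28 counts in WT_10 and 1, 0 and 1 in Leo1_10, and 61, 51 and 64 in WT_01 against 0 in all 3 Leo1_01 libraries. PMAIP1 (NOXA), a trigger of apoptosis, was higher in 10% serum (1.51, adjusted p = 0.0232, ERCC scale), and TP53I11 in 0.1% serum (1.37, adjusted p = 0.0345). The 12 cell cycle genes that p53 and p21 are known to lower through the DREAM complex were not called between the genotypes on either scale. At an unadjusted p under 0.05 there were 2 and 5 on the ERCC scale and 0 on the gene scale. The medians were 0.73 and 0.82 on the ERCC scale and 0.49 and 0.39 on the gene scale. For all 12, library 3 had the lowest count of WT_10 and library 9 the highest of WT_01. CDK1 had 1378, 1503 and 445 counts in WT_10 and 2161, 2868 and 1458 in Leo1_10. In low serum it had 615, 495 and 1261 in WT_01 and 1135, 1115 and 1476 in Leo1_01. With this spread, the absence of calls does not show equal levels.

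Low against normal serum asked what changes as the cells become quiescent. On the ERCC scale the p53 targets were lower in low serum, as were the other genes. In wild type 10 of 32 were called lower (36.1% of all tested genes were) and 0 higher (0.944%; 0 at an unadjusted p under 0.05, and 0 by the quasi-likelihood test and by DESeq2), with a member median of -0.93 beside -0.97 for all genes. In ΔLEO1 16 were lower (47.2%) and 0 higher (0.975%; 0 likewise), with a median of -1.14 beside -1.05. Set against the other genes, 4 were lower (16.6%) and 7 higher (16.0%) in wild type, and 5 lower (12.9%) and 5 higher (16.5%) in ΔLEO1, with medians of 0.03 and -0.06. With the term for the highest-numbered library, 9 were lower in wild type (29.4%) and 12 in ΔLEO1 (32.2%) on the ERCC scale. Without libraries 3, 6, 9 and 12 the ERCC-scale counts were 23 lower in wild type (72.4%) and 29 in ΔLEO1 (93.1%), and the gene-scale counts 8 lower (30.8%) and 10 higher (28.0%), and 12 lower (28.4%) and 10 higher (29.2%). Left out one at a time, the library that moved the ERCC-scale count farthest was library 12 upward (20 in wild type and 26 in ΔLEO1), library 1 or 7 downward in wild type (2) and library 10 downward in ΔLEO1 (1). For these fits too, the shares of all tested genes are not given here.

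**Figure D5:**
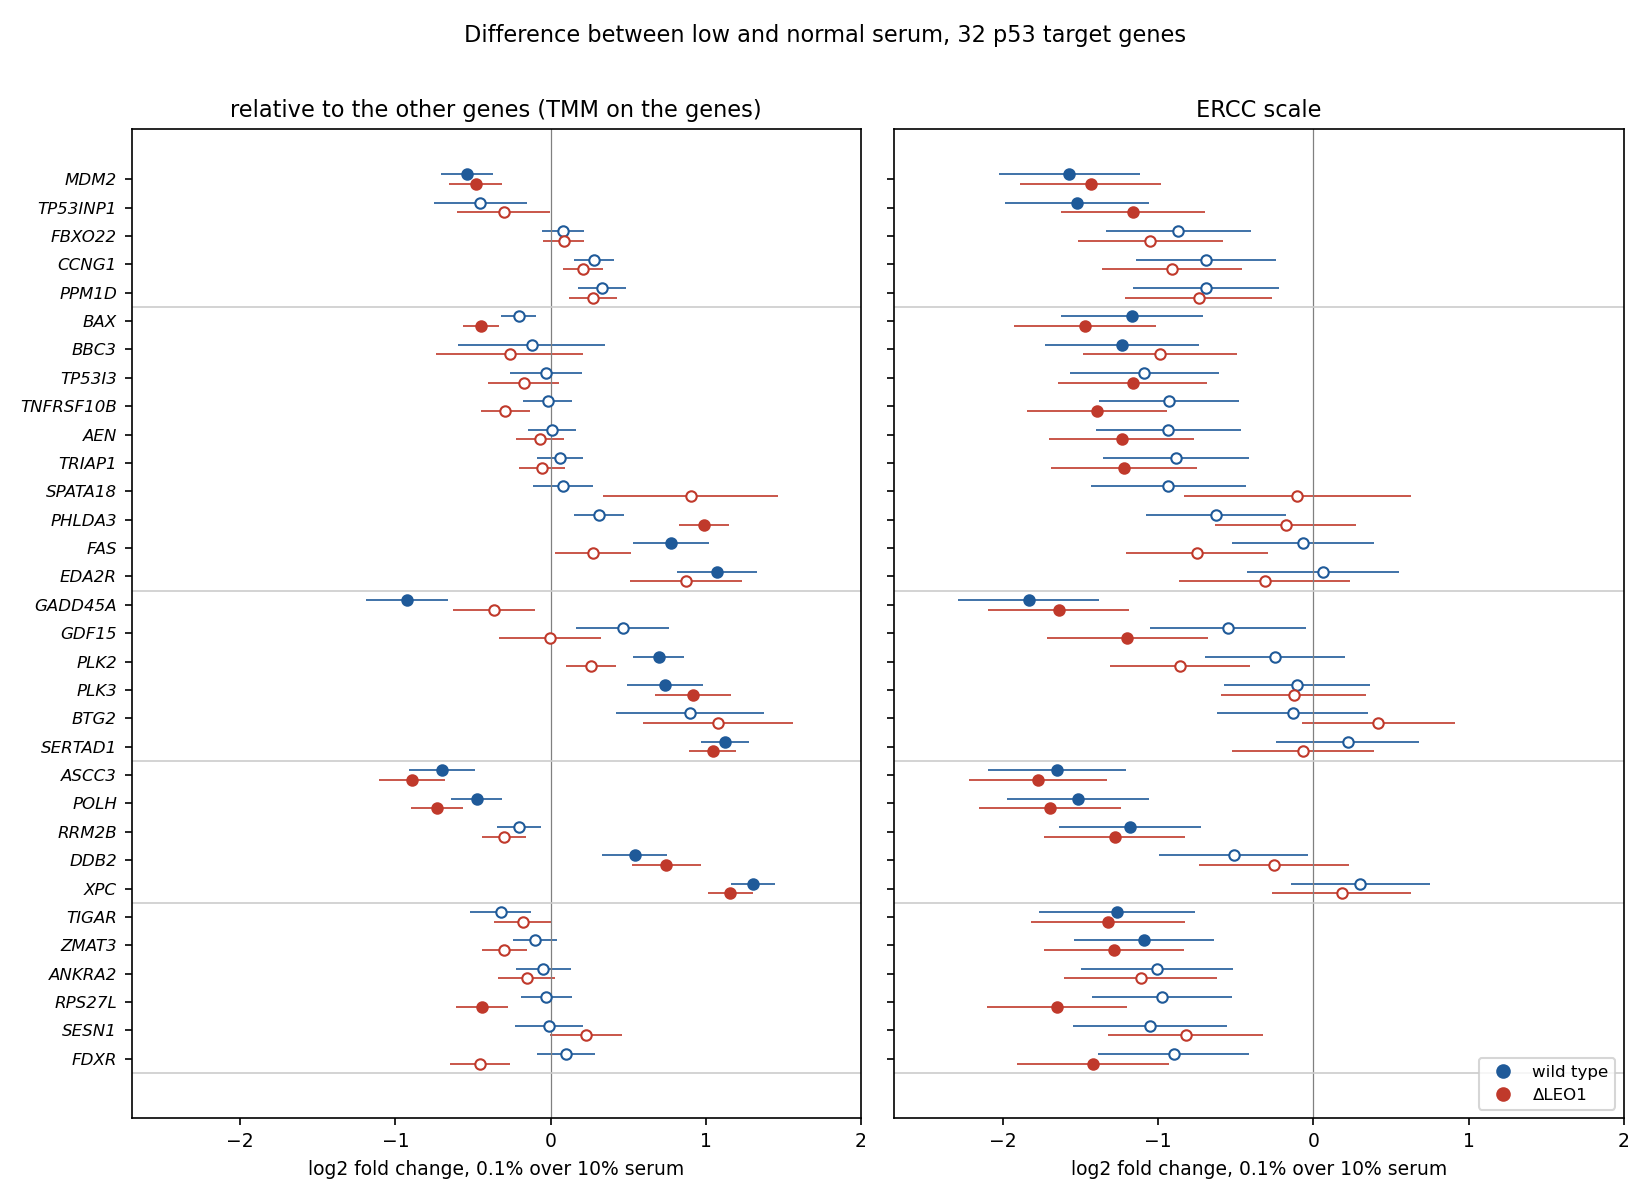
Log2 fold change of 0.1% over 10% serum with SE for 32 p53 targets in wild type (blue) and ΔLEO1 (red), relative to the other genes (left) and on the ERCC scale (right). Filled points were called, and grey lines part the roles in the order feedback, apoptosis, arrest, repair and metabolism. XPC and SERTAD1 lie to the right in both genotypes on the left panel, and nearly all points lie under 0 on the right.

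Individual targets differed by serum in both genotypes. MDM2, POLH and ASCC3 were lower on both scales. MDM2 fell by 1.57 in wild type (adjusted p = 0.00669) and by 1.43 in ΔLEO1 (adjusted p = 0.0142) on the ERCC scale, and its values on the gene scale are given above. POLH gave -1.51 and -1.70, and ASCC3 -1.65 and -1.78. GADD45A, a stress-induced growth arrest gene, was lower on the ERCC scale in both (-1.83 and -1.64) and on the gene scale in wild type (-0.92, adjusted p = 0.00316). BAX and RPS27L were lower in ΔLEO1 on both scales, with -0.45 and -0.44 on the gene scale.

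XPC, SERTAD1, DDB2 and PLK3 were higher relative to the other genes in both genotypes. XPC had 75.4, 73.2 and 60.003 CPM in WT_10 and 181, 168 and 165 in WT_01, and 74.4, 73.6 and 66.8 in Leo1_10 and 150.1, 139 and 191 in Leo1_01. The low-serum libraries all lay above the normal-serum ones, by 1.30 (adjusted p = 4.22e-17) and 1.16 (adjusted p = 1.31e-13). The same gene gave 0.30 and 0.18 on the ERCC scale with no call. SERTAD1 gave 1.12 and 1.05 on the gene scale, against 0.22 and -0.07 on the ERCC scale. DDB2 gave 0.54 and 0.75 against -0.51 and -0.25, and PLK3 0.74 and 0.92 against -0.10 and -0.13. EDA2R (1.07), FAS (0.78) and PLK2 (0.70) were higher on the gene scale in wild type and PHLDA3 (0.99) in ΔLEO1. Gene-scale calls lost when 1 library was left out were, in wild type, FAS (1, 2, 7 or 8), PLK3 (1, 2 or 8), DDB2 (3, 5, 8 or 9), POLH (1, 2, 7 or 8), MDM2 (7 or 8) and ASCC3 (8), and in ΔLEO1 MDM2 (4, 5, 10 or 11) and RPS27L (4, 5 or 12). For DDB2 and PLK3 in both genotypes, FAS and PLK2 in wild type, and SERTAD1 and PHLDA3 in ΔLEO1, the sign on the ERCC scale was the opposite. Without libraries 3, 6, 9 and 12, DDB2 in wild type and 7 members in ΔLEO1 (CCNG1, DDB2, FAS, PLK2, PLK3, PPM1D and XPC) were called higher on the gene scale and lower on the ERCC scale, so that their direction by serum depends on the scale.

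Whether serum acted differently in wild type and ΔLEO1 was tested with the interaction term. On the ERCC scale 0 of 32 members were called (0.219% of all tested genes), with 0 at an unadjusted p under 0.05 and 0 by the quasi-likelihood test and by DESeq2. Relative to the other genes 0 were called (4.08%), with 2 at an unadjusted p under 0.05 and 0 by the quasi-likelihood test. Without libraries 3, 6, 9 and 12, 8 members were called on the gene scale, BTG2, FAS, PLK2, RPS27L, TNFRSF10B and XPC with a lower response in ΔLEO1 (9.99% of tested genes) and GADD45A and PHLDA3 with a higher one (17.5%), and 0 on the ERCC scale.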

How the data were processed

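RNA was measured in 12 libraries, 4 groups of 3. The authors deposited raw counts per gene with the ERCC transcripts, made with bcl2fastq 2.20.0.422, STAR 2.7.10a and featureCounts 1.5.1 per the submitters' processing notes. The library kit keeps strand, but the strand setting of the counting and the annotation release are not given in the sources used here.

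Symbols were found for 60401 of 60671 genes. Coordinates are those of GENCODE on GRCh38, where 58453 genes were found. Genes over 1 CPM in at least 3 libraries were tested with the edgeR 4.0.16 likelihood ratio test (R 4.3.3), fitted on all 12 libraries with library sizes scaled by TMM on the ERCC counts, and p-values were adjusted by Benjamini-Hochberg over all tested genes (threshold 0.05). The same fit with TMM on the genes gave the gene scale. Alternatives were the quasi-likelihood test, DESeq2 1.42.0, no filter on low counts, a term for the highest-numbered library of each group, leaving out libraries 3, 6, 9 and 12, and leaving out each library in turn. Those run on the gene scale were chosen after seeing the data. The members and gene lists were chosen with earlier results of these data known. Members given in full were, in each comparison and on either scale, up to 4 called ones with the largest positive and up to 4 with the largest negative fold change and called ones whose groups did not overlap. No pair of libraries had equal counts (lowest chi-square per gene 2.87). On simulated counts for the wild-type serum comparison (200 of 13236 genes changed 4-fold, dispersion 0.1), the likelihood ratio test, the quasi-likelihood test and DESeq2 recovered 194, 192 and 194 with 13, 8 and 30 false calls. The simulated counts took the spike-in scaling as exact and held no library that stood apart. They therefore do not give the error of the ERCC-scale calls in the real libraries. Intervals (95%) and floors (3 counts per library) cover counting error only. Figures and counts of overlaps used Python 3.11.15. Some genes are not reported here.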

Additional observations from a re-analysis of the deposited data

Results flagged for a closer look

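None of the 32 members was singled out, but 4 genes of the second list of p53 targets were, because the serum response differed between the genotypes by the interaction test on the gene scale. The difference of ΔLEO1 minus wild type in the log2 change from 10% to 0.1% serum was 1.15 for CDKN1A (adjusted p = 0.000261, edgeR likelihood ratio test), 0.96 for TP53I11 (adjusted p = 0.031), 0.94 for PERP (adjusted p = 1.27e-07) and 0.90 for SUSD6 (adjusted p = 0.00985). When 1 library was left out, the largest adjusted p was 0.134 for TP53I11 and 0.0517 for SUSD6. On the ERCC scale none of the 4 passed the test.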

How the results depend on the processing

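Counts of members called moved with the setting more than the signs of the called members did. The share of all tested genes, given in parentheses, moved with the setting too. The ERCC-scale serum count lower in wild type was 5 by the quasi-likelihood test (27.0%) and 5 with no filter (10.5%). It was 23 without libraries 3, 6, 9 and 12 (72.4%). On the gene scale 4 were lower (16.6%) and 7 higher (16.0%). In ΔLEO1 it was 10 with no filter (13.3%) and 29 without those libraries (93.1%). On the gene scale 5 were lower (12.9%) and 5 higher (16.5%). Between the genotypes the gene scale gave 18 lower (21.8%) and 3 higher (17.7%) in 10% serum. In 0.1% serum it gave 17 lower (17.6%) and 3 higher (15.4%). Leaving out the 4 libraries gave 4 higher in 10% serum (6.72%) and 18 lower in 0.1% serum (15.9%) on the ERCC scale. Without those libraries the gene-scale counts were 8 lower by serum in wild type (30.8%), and 12 lower (28.4%) and 10 higher (29.2%) in ΔLEO1. Between the genotypes 6 were higher in each serum (31.0% and 31.1%). For the interaction the count was 8 (9.99% of tested genes lower and 17.5% higher). With 1 library left out, the ERCC counts ran from 2 to 20 lower by serum in wild type, 1 to 26 in ΔLEO1, 2 to 9 lower and 0 to 3 higher by genotype in 10% serum, and 4 to 15 lower and 0 to 2 higher in 0.1% serum. Those on the gene scale ran from 1 to 5 lower and 4 to 10 higher by serum in wild type, 3 to 9 lower in ΔLEO1 and 0 to 2 for the interaction. The shares of all tested genes with 1 library left out are not given beside these ranges. Signs reversed for members that were not called on the ERCC scale with all 12 libraries, and without libraries 3, 6, 9 and 12 the scales gave calls in opposite directions by serum for 1 member in wild type and 7 in ΔLEO1. The gene-scale serum change was 0.54 for DDB2, 0.78 for FAS, 0.70 for PLK2 and 0.74 for PLK3 in wild type, and 0.75 for DDB2, 0.99 for PHLDA3, 0.92 for PLK3 and 1.05 for SERTAD1 in ΔLEO1. Without libraries 3, 6, 9 and 12 the ERCC-scale serum change in wild type was 0.22 for FAS, 0.16 for PLK3 and -0.065 for EDA2R. In ΔLEO1 it was -0.74 for XPC, against 0.96 on the gene scale. The ERCC-scale genotype difference of PLK2 in 0.1% serum was -0.072 without these libraries. With 1 library left out, the ERCC-scale serum change in wild type ran from -0.36 to 0.22 for FAS and -0.49 to 0.0323 for PLK2. It ran from -0.34 to 0.0539 for PLK3, -0.063 to 0.44 for SERTAD1 and -0.24 to 0.26 for EDA2R. In ΔLEO1 it ran from -0.58 to 0.55 for XPC, -1.002 to 0.12 for DDB2, -0.43 to 0.0891 for PHLDA3, -0.79 to 0.18 for PLK3 and -0.48 to 0.23 for SERTAD1. The genotype difference on the ERCC scale in 10% serum ran from -0.35 to 0.0555 for AEN and -0.40 to 0.0432 for RPS27L. It ran from -0.29 to 0.14 for CCNG1 and -0.30 to 0.16 for ANKRA2. In 0.1% serum it ran from -0.61 to 0.0171 for CCNG1 and -1.05 to 0.15 for ANKRA2. The cause was not tested. No paired analysis was possible because the libraries are numbered through the series and groups have no number in common. With a term for the highest-numbered library of each group, 9 and 12 members were lower by serum in wild type (29.4% of all tested genes) and ΔLEO1 (32.2%) on the ERCC scale. By genotype 6 were lower in each serum (4.38% in 10% serum and 3.31% in 0.1% serum). Depth limits TNFRSF10A, SPATA18 and TNFRSF1B, which had 8 or fewer counts in each ΔLEO1 library, and 3 libraries a group and 1 clone limit the rest.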
